A study of Mus musculus with 21 samples.

Results

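The metallothionein genes Mt1 and Mt2 and the zinc exporter gene Slc30a1 were followed across 21 single-cell RNA libraries of mouse CD8 T cells. These 3 of the 17516 genes in the count tables were chosen by name, with their levels in these libraries already known. Their levels and differences are therefore descriptions, and no test was made on them. The study asked how T cells respond to attenuated IL-2 signalling. Naive CD8 T cells of the OT1 strain, which carries a transgenic T cell receptor for an ovalbumin peptide, were activated on day 0 with beads coated with antibodies to CD3 and CD28. Culture continued in wild-type IL-2, in IL-15 or in the mutant IL-2 called IL-2v (IL-2bg in the labels), each at 5 or 50 IU/mL.

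All 21 libraries came from OT1 cells, with 1 library for each condition. The groups were untreated naive cells on day 0, bead-activated cells with no added cytokine on days 3 and 5, and bead-activated cells with each of the 3 cytokines at each of the 2 doses on days 3, 5 and 10. With 1 library per condition no replicate spread could be measured. All intervals below are 95% intervals for counting error only, exact Poisson for levels, exact binomial (Clopper-Pearson) for shares of cells and exact conditional for ratios. The treatment labels of the 50 IU/mL IL-2 and IL-15 libraries carry other interleukin numbers than the titles, and the titles were followed. Those 6 libraries include the 3 with the highest metallothionein levels.

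The libraries held 3250 to 7105 cells and 10589950 to 32648496 unique molecular identifiers (UMIs, tags that mark single RNA molecules), with a median of 3016 to 5065 UMIs per cell. The library with 50 IU/mL IL-2 on day 5 had the fewest cells and UMIs, the lowest medians of UMIs (3016) and genes (1271) per cell and the lowest mitochondrial share (2.91%). The cell type label was checked against Cd3d, Cd3e, Cd3g, Trac, Cd8a and Cd8b1. All 6 had UMIs in every library, and their summed level was 2238 to 5519 CPM (UMIs of a gene scaled to the total of the library). Summed B cell markers stood at 1.54 to 17.8 CPM and CD4 T cell markers at 0 to 4.76 CPM. The 3 erythroid markers in the tables summed to 3.15 and 2.55 CPM with 50 IU/mL IL-2 on days 3 and 5 and to 0 to 1.65 CPM elsewhere. The share of cells with a UMI of the proliferation genes Mki67 or Top2a ranged from 3.01% to 86.9%. Between 1 and 19 cell barcodes were shared by any 2 libraries.

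Metallothioneins are small proteins rich in cysteine that bind zinc and copper ions and buffer their free concentration in the cell. Their genes are switched on by the zinc-sensing transcription factor MTF1, which binds short metal response elements near the transcription start. Slc30a1 encodes ZnT1, a transporter in the plasma membrane that moves zinc out of the cell, and it is itself a known target of MTF1.

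The promoters of the 3 genes are shown because the metal response element is the known link between them. Each window runs from 250 bases before to 50 bases after the RefSeq start, on the plus strand of GRCm38.p6. Capitals mark matches to the metal response element core, searched on both strands as TGCACNC or TGCGCNC.
Mt1: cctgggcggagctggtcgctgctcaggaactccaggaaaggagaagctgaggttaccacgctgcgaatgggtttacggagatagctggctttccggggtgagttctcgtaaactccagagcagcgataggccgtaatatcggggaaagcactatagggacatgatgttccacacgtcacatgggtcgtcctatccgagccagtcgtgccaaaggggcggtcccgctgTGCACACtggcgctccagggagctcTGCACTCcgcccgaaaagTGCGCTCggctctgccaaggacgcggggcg
Mt2: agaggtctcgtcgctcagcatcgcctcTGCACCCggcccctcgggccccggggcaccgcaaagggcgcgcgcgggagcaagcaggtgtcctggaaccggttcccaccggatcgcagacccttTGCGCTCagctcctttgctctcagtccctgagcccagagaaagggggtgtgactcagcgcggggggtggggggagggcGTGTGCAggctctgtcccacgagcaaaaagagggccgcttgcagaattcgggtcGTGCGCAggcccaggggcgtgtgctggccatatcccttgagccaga
Slc30a1: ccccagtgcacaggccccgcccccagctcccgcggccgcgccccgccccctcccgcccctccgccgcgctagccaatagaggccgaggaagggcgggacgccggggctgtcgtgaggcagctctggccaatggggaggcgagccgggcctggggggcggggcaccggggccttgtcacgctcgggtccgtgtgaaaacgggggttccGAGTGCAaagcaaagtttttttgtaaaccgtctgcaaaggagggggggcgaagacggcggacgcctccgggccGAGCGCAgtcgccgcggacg
The Mt1 window (chr8:94178839-94179138) held 3 matches, beginning at positions -23, 2 and 20 from the RefSeq start. The Mt2 window (chr8:94172368-94172667) held 4, of which 3 lay before the RefSeq start. The GENCODE start of Mt2 (94172664) falls near the end of this window, and all 4 matches lie before it. Positions and counts of matches thus depend on the start used, for Mt1 and Slc30a1 as well. Only the window of 1 start was searched for each gene, so the counts do not rank the genes. The Slc30a1 window (chr1:191906531-191906830) held 2, on the minus strand. At least 1 match was present in 25.7% of all 32851 promoters of this length, at least 3 in 1.31% and at least 4 in 0.295%. The antioxidant response element core TGACNNNGC, present in 12.4% of promoters, had 1 match in Mt2 and 1 in Slc30a1 and none in Mt1. The STAT motif TTCNNNGAA had no match in the 3 windows, and 8.3% of promoters held it. None of the metal element matches overlapped an antioxidant core match.

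**Figure D1:**
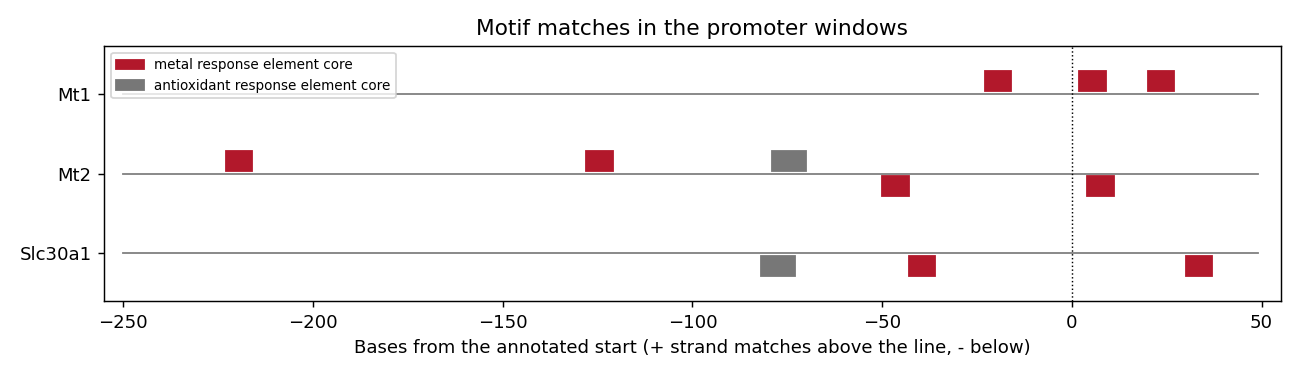
Positions of motif matches in the promoter windows of Mt1, Mt2 and Slc30a1, in bases from the annotated start (dotted line); boxes above a line are plus-strand and boxes below it minus-strand matches. Within these windows Mt2 has 4 metal response element cores, Mt1 has 3 and Slc30a1 has 2.

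In GENCODE vM21 (GRCm38), Mt2 lies on chromosome 8 from 94172664 to 94173568 and Mt1 from 94179082 to 94180327, both on the plus strand with 5513 bases between them. Mt3, another metallothionein gene, lies upstream of Mt2 at 94152607 to 94154146. Slc30a1 lies on chromosome 1 from 191906767 to 191913247. No stretch of 50 bases in the transcripts of these genes, read in the sense direction, was shared with a transcript of another gene. Opposite strands were not compared. An antisense gene, Gm45774, covers 73.5% of the exonic bases of Mt2 and collected 18 UMIs over all libraries. Another, 1700034H15Rik, covers 8.9% of those of Slc30a1. Whether the counting used strand is not given in the sources used here, so reads of Mt2 and of its antisense partner may not have been told apart.

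Mt1 was close to absent before activation and highest with 50 IU/mL IL-2. It had 9 UMIs in naive cells, a level of 0.487 CPM (0.223 to 0.925). Without added cytokine it stood at 265 CPM on day 3 and 25.8 CPM on day 5. With 50 IU/mL IL-2 the level was 714 CPM on day 3, 761 CPM on day 5 and 908 CPM (897 to 919) on day 10. These 3 libraries were the highest of the 21, and their intervals did not overlap those of any other library. With 5 IU/mL IL-2, Mt1 was at 385, 104 and 171 CPM on days 3, 5 and 10. With IL-2v it was at 167, 54.0 and 19.1 CPM at 5 IU/mL, and at 31.1, 49.1 and 50.2 CPM at 50 IU/mL on the same days. With IL-15 it was at 213, 68.7 and 3.90 CPM at 5 IU/mL, and at 190.0, 57.6 and 29.1 CPM at 50 IU/mL. The lowest activated library was thus that with 5 IU/mL IL-15 on day 10, with 91 UMIs. Of the 20 neighbouring steps in the order of Mt1 levels, 6 had overlapping intervals.

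Mt2 was likewise highest with 50 IU/mL IL-2. It had 0 UMIs in naive cells, with an exact Poisson upper bound of 0.20 CPM; the floor of 3 UMIs, used below for the fold, is 0.162 CPM there. Without cytokine it was at 53.5 CPM on day 3 and 4.28 CPM on day 5. With 50 IU/mL IL-2 it was at 196, 288 and 439 CPM on days 3, 5 and 10, again the 3 highest libraries. With 5 IU/mL IL-2 it was at 85.2, 30.1 and 46.3 CPM on these days. With IL-2v the levels were 23.2, 8.19 and 2.36 CPM at 5 IU/mL and 7.62, 10.6 and 9.93 CPM at 50 IU/mL. With IL-15 they were 48.7, 15.8 and 0.729 CPM at 5 IU/mL and 41.0, 16.6 and 5.12 CPM at 50 IU/mL. Of the 20 neighbouring steps, 8 had overlapping intervals. Across the 21 libraries the log2(CPM + 1) values of Mt1 and Mt2 had a Pearson correlation of 0.97 and a Spearman correlation of 0.99, with depth and library shared by each pair of values.

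Slc30a1 was sparsely counted. Its highest level was in naive cells, at 9.10 CPM (7.77 to 10.6) from 168 UMIs. Without cytokine it was at 3.69 CPM on day 3 and 6.23 CPM on day 5. On days 3, 5 and 10 it was at 3.11, 5.94 and 6.32 CPM with 5 IU/mL IL-2 and at 4.66, 3.68 and 4.99 CPM with 50 IU/mL IL-2. These IL-2 values lay inside the range of the other activated libraries. With IL-2v it was at 3.18, 5.59 and 6.59 CPM at 5 IU/mL and at 2.92, 2.79 and 2.13 CPM at 50 IU/mL, the last being the lowest level measured. With IL-15 it was at 4.49, 6.66 and 5.62 CPM at 5 IU/mL and at 5.00, 7.43 and 5.21 CPM at 50 IU/mL. All 20 neighbouring steps in the order had overlapping intervals. Its correlation with Mt1 over the 21 libraries was -0.40 (Pearson) and -0.36 (Spearman), and -0.16 (Pearson) over the 18 libraries with a cytokine.

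**Figure D2:**
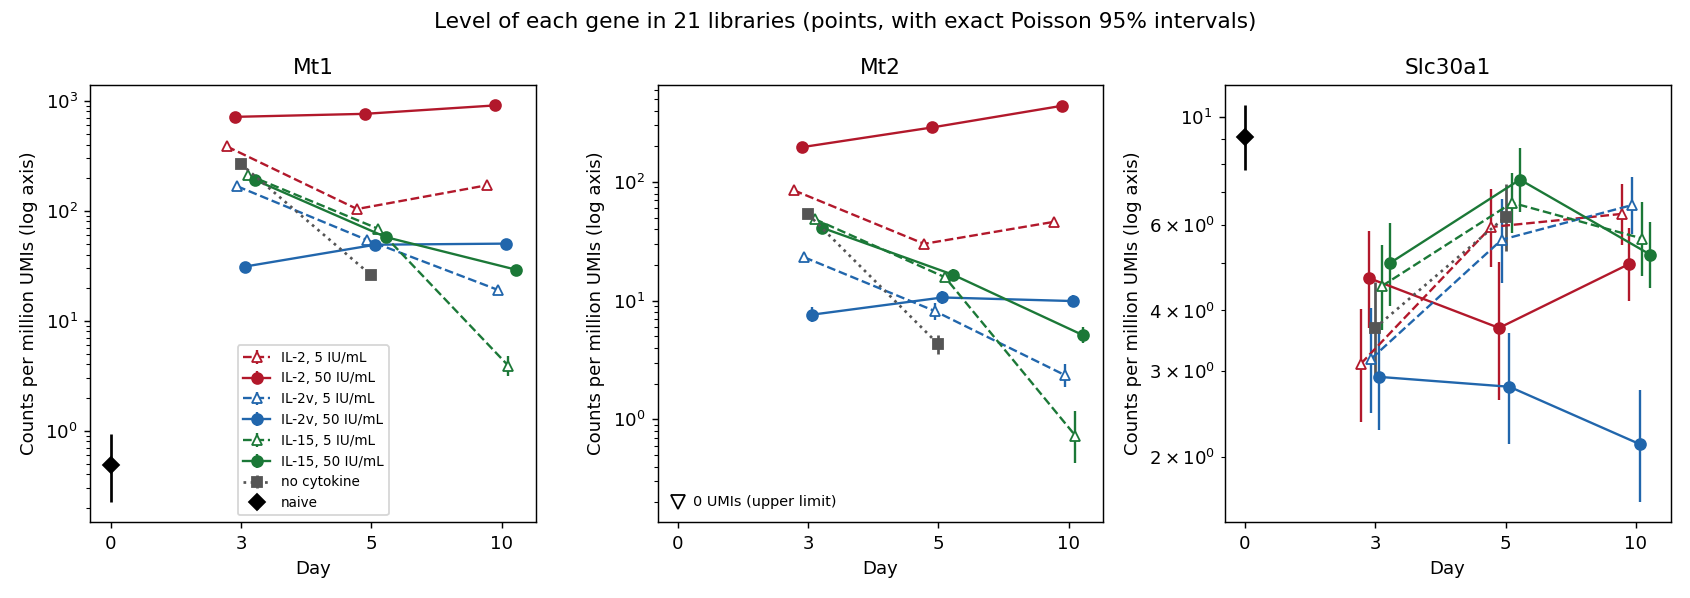
Level of each gene in CPM (log axis) by day (days evenly spaced, not to scale) in the 21 libraries; points are libraries, bars are exact Poisson 95% intervals and lines join libraries of 1 treatment. IL-2 at 50 IU/mL gave the 3 highest levels of Mt1 (714 to 908 CPM) and Mt2 (196 to 439 CPM), while Slc30a1 was highest in naive cells (9.10 CPM).

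Bead activation for 3 days without cytokine was set against the naive library. Mt1 was 544-fold higher (287 to 1191), a log2(CPM + 1) difference of 7.48. In noncycling cells, those with neither an Mki67 nor a Top2a UMI, it was 958-fold higher (410.0 to 2955), with 5 UMIs in the naive cells. Mt2 had 0 UMIs in the naive library. Set against a floor of 3 UMIs there it was at least 329-fold higher, and the exact 95% interval of the ratio, which takes the counting error of both libraries, began at 267 and is the more cautious bound. Slc30a1 was 2.47-fold lower (1.88 to 3.25). Of the 6171 genes that reached a 20 CPM mean on either side, 11.1% stood 2-fold or more above the naive library on the log2(CPM + 1) scale, and 8.31% stood 2-fold or more below it. With ribosomal protein and mitochondrial genes left out of the totals, the Mt2 log2(CPM + 1) difference, which depends on the pseudocount and is no bound, moved from 5.77 to 6.47. With a pseudocount of 10 CPM in place of 1 the differences were 4.71 for Mt1 and 2.67 for Mt2, and that of Slc30a1 moved from -1.11 to -0.48. Both metallothioneins were among the higher genes, while Slc30a1 was under the 20 CPM filter, as it was in all 22 comparisons made. Mt1 reached that filter in 22 comparisons and Mt2 in 17.

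Later, without cytokine, the metallothioneins were lower again. Mt1 was 10.3-fold lower on day 5 than on day 3 (9.48 to 11.2), and Mt2 was 12.5-fold lower (10.3 to 15.3). The Mt2 difference of -3.37 on the log2(CPM + 1) scale was -4.29 without the top 1% of cells for that gene and -2.15 with a pseudocount of 10 CPM. Dropping a fixed 1% of cells takes more of the signal where few cells hold the gene, so it widens such gaps by construction. Mt2 had a UMI in 13.3% of all cells on day 3 and in 1.44% on day 5. Slc30a1 was 1.69-fold higher (1.29 to 2.23), and in noncycling cells its ratio of 1.39 had an interval that held 1 (0.95 to 2.11). In this comparison 9.47% of 5785 genes were at least 2-fold lower, both metallothioneins among them, and 3.61% were at least 2-fold higher. With TMM scaling 38.0% of the changed genes were higher, against 27.6% by CPM. The share of cells with a Mki67 or Top2a UMI was 60.0% on day 3 and 13.8% on day 5. Among cells with neither UMI, Mt1 was at 270.1 CPM on day 3 and 23.0 CPM on day 5, and Mt2 was at 66.1 and 3.10 CPM, a log2 difference of -4.03 against -3.37 in all cells. Such cells may still cycle, and the part of cycling in the difference was not tested.

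IL-2v and IL-2 were compared in 6 pairs of libraries of equal day and dose. Mt1 was lower with IL-2v in 6 of 6 pairs, with a median log2 difference of -3.51 and a range of -4.48 to -0.93. Mt2 was lower in 6 of 6 pairs, with a median of -4.17 and a range of -5.33 to -1.76. The Mt2 median was -5.41 without the top 1% of cells for the gene and -2.87 with a pseudocount of 10 CPM. The wider value follows from the setting, since few IL-2v cells held Mt2 (1.07% of all cells at 5 IU/mL on day 10). A gene was called where all pairs had 1 sign and the median difference was at least 1 in size. By this rule 0.274% of 5839 genes (16 genes) were lower with IL-2v, and both metallothioneins were among them. With totals scaled by TMM, 59.0% of all called genes were higher with IL-2v, against 79.2% by CPM, and 25 genes were lower. The choice of the members used these levels, so nothing further is read from the counts.

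The gap between IL-2v and IL-2 was wider at the higher dose. At 50 IU/mL, Mt1 was 23.0-fold lower with IL-2v on day 3 (21.3 to 24.8), 15.5-fold lower on day 5 and 18.1-fold lower on day 10. At 5 IU/mL it was 2.30-fold lower on day 3, 1.92-fold lower on day 5 and 8.95-fold lower on day 10. Mt2 was 25.8-fold, 27.1-fold and 44.2-fold lower at 50 IU/mL on the 3 days, and 3.67-fold, 3.68-fold and 19.6-fold lower at 5 IU/mL. For both genes the ratio at 50 IU/mL lay outside the interval at 5 IU/mL on each day. In noncycling cells the day 5 gap at 50 IU/mL was smaller, 8.72-fold for Mt1 (7.92 to 9.62) and 12.3-fold for Mt2 (10.2 to 14.8). In the other 5 pairs it moved by less than 1.5 times for both genes. Without the day 10 libraries the median difference was -2.56 for Mt1 and -3.17 for Mt2.

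Slc30a1 showed a smaller and less regular difference between IL-2v and IL-2. Its median log2 difference was -0.19, with a range of -0.94 to 0.05, and it was 0.02 in noncycling cells. At 50 IU/mL it was lower with IL-2v by 1.60-fold on day 3 (1.14 to 2.24) and 2.35-fold on day 10 (1.71 to 3.25), while the day 5 ratio of 1.32 had an interval of 0.86 to 2.01. At 5 IU/mL all 3 intervals held 1. In noncycling cells the day 3 interval at 50 IU/mL also held 1 (2.35-fold lower, 0.85 to 8.06), while that of day 10 did not (1.64 to 3.42).

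Other features of the libraries moved with the cytokine. At 50 IU/mL the share of cells with a Mki67 or Top2a UMI was 73.8%, 50.4% and 13.4% with IL-2 and 86.9%, 66.7% and 25% with IL-2v on days 3, 5 and 10. Among cells lacking both, the median difference between IL-2v and IL-2 was -3.14 for Mt1 and -3.67 for Mt2. The summed level of 5 myeloid markers was highest with 50 IU/mL IL-2 on day 10, at 129 CPM, followed by 50.3 CPM with 50 IU/mL IL-2v on that day. It was 1.24 to 23.5 CPM in the other libraries. In that first library Fcer1g was at 113 CPM, Cd68 at 14.9 CPM and Itgam at 0.440 CPM, and in the second they were at 44.3, 5.61 and 0.476 CPM. The other markers, Lyz2 and Csf1r, had 0 UMIs in all 20 activated libraries. Fcer1g and Cd68 were thus highest in the library with the highest metallothionein levels, and their part in the result was not tested. The sum of the 6 T cell genes was 2238, 2952 and 2927 CPM with 50 IU/mL IL-2 on days 3, 5 and 10 and 2637, 3049.9 and 3029.95 CPM with 50 IU/mL IL-2v, the lowest of the 21 libraries being that of 50 IU/mL IL-2 on day 3. The part of this and of the erythroid markers was not tested.

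IL-15 and IL-2 were compared in the same way. Mt1 was lower with IL-15 in 6 of 6 pairs, with a median log2 difference of -2.80 and a range of -5.13 to -0.59. Mt2 was lower in 6 of 6 pairs, with a median of -3.14 and a range of -6.17 to -0.79, or a median of -2.20 with a pseudocount of 10 CPM. In this comparison 1.7% of 5718 genes were called lower, both metallothioneins among them. At 50 IU/mL the gap was wider on each later day, where Mt1 was 3.76-fold, 13.2-fold and 31.2-fold lower on days 3, 5 and 10, and Mt2 was 4.79-fold, 17.4-fold and 85.9-fold lower. In noncycling cells the day 3 gap at that dose was 5.65-fold for Mt1 (5.26 to 6.07) and 6.89-fold for Mt2 (5.98 to 7.96). At 5 IU/mL, Mt1 was 1.81-fold, 1.51-fold and 43.8-fold lower. Without day 10 the medians were -1.38 for Mt1 and -1.56 for Mt2, and without day 3 they were -4.31 and -4.41. Without day 5 the Mt1 median was -3.41. Slc30a1 had a median difference of 0.11, and its interval lay above 1 in 2 of 6 pairs, the larger being 2.02-fold (1.42 to 2.93) at 50 IU/mL on day 5.

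IL-2v and IL-15 did not differ in 1 direction. Mt1 had a median log2 difference of -0.28 between them, with a range of -2.57 to 2.03. The sign of this median turned without day 3 (0.27), without day 5 (0.21) and in noncycling cells (0.23). Mt1 was lower with IL-2v on day 3 by 1.27-fold at 5 IU/mL and 6.11-fold at 50 IU/mL, and on day 5 by 1.27-fold and 1.17-fold. In noncycling cells the direction turned at 50 IU/mL on day 5, where Mt1 was 1.48-fold (1.32 to 1.65) and Mt2 1.41-fold (1.14 to 1.75) higher with IL-2v, and on day 3 the 50 IU/mL gap was 3.53-fold for Mt1 and 2.88-fold for Mt2. On day 10 it was higher with IL-2v, 4.89-fold (3.92 to 6.16) at 5 IU/mL and 1.73-fold (1.59 to 1.88) at 50 IU/mL. Mt2 had the same signs, with a median of -0.73 and a range of -2.29 to 0.96, and its median was 0.12 without day 3. Slc30a1 was lower with IL-2v at 50 IU/mL on each day, by 1.71-fold, 2.66-fold and 2.45-fold, and all 3 intervals lay clear of 1. At 5 IU/mL it was 1.41-fold lower on day 3 (1.02 to 1.95), the day 5 interval held 1, and on day 10 it was 1.17 times the IL-15 level (0.94 to 1.47). In noncycling cells the Slc30a1 intervals of day 3 held 1. It was 2.48-fold lower there at 50 IU/mL (0.98 to 8.06) and 1.35-fold lower at 5 IU/mL (0.78 to 2.39). At 50 IU/mL the noncycling intervals of days 5 and 10 lay clear of 1.

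**Figure D3:**
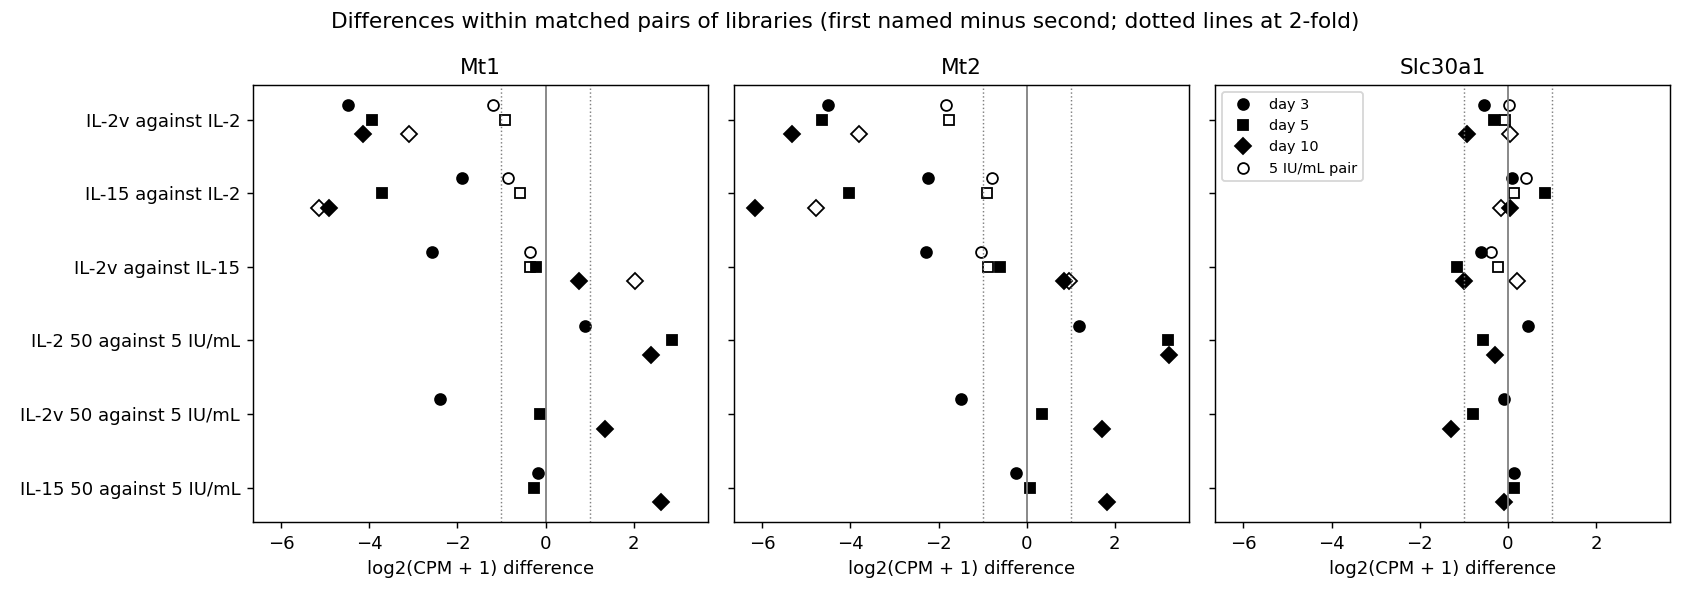
Difference in log2(CPM + 1) within each pair of libraries (first treatment named minus second) for the 3 genes; filled symbols are 50 IU/mL pairs or dose pairs, open symbols 5 IU/mL pairs, and dotted lines mark 2-fold. Mt1 and Mt2 lie left of 0 in all 6 pairs of IL-2v or IL-15 against IL-2 and right of 0 in the 3 pairs of IL-2 doses.

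The metallothioneins were higher at 50 than at 5 IU/mL on every day with IL-2, and on some days with IL-2v and IL-15. With IL-2, Mt1 was 1.86-fold higher at 50 IU/mL on day 3 (1.80 to 1.91), 7.34-fold on day 5 (6.99 to 7.71) and 5.31-fold on day 10 (5.16 to 5.48). Mt2 was 2.31-fold, 9.56-fold and 9.50-fold higher. The median log2 difference was 2.40 for Mt1 and 3.22 for Mt2; without day 5 it was 1.65 and 2.21, and without day 10 it was 2.21 for Mt2. By the call rule 4.29% of 5879 genes were higher at 50 IU/mL IL-2, both metallothioneins among them, and 2.7% were lower. With IL-2v the sign changed with the day. Mt1 was 5.37-fold lower at 50 IU/mL on day 3 (4.96 to 5.83), 1.10-fold lower on day 5 and 2.63-fold higher on day 10 (2.39 to 2.9). Mt2 was 3.05-fold lower, 1.3-fold higher and 4.21-fold higher on these days. In noncycling cells the day 5 direction of Mt1 turned, to 1.61-fold higher at 50 IU/mL (1.42 to 1.83), and Mt2 was 2.57-fold higher. On day 3 those cells had Mt1 3.50-fold and Mt2 1.80-fold lower at 50 IU/mL. With IL-15, Mt1 was 1.12-fold and 1.19-fold lower at 50 IU/mL on days 3 and 5 and 7.45-fold higher on day 10 (6.0 to 9.35), where the 5 IU/mL library held 91 UMIs. The Mt2 ratio of 50 to 5 IU/mL IL-15 was 0.84, 1.05 and 7.01 on these days, with 17 UMIs at 5 IU/mL on day 10. Whether the dose responses differed between cytokines was not tested.

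Slc30a1 was not called in the dose step of any cytokine, though intervals of single days lay clear of 1 with IL-2v and with IL-2. At 50 IU/mL IL-2v it was 2.0-fold lower on day 5 (1.44 to 2.80) and 3.10-fold lower on day 10 (2.31 to 4.22), while the day 3 ratio of 1.09 had an interval of 0.77 to 1.55. With IL-2 it was 1.5-fold higher at 50 IU/mL on day 3 (1.05 to 2.15), 1.61-fold lower on day 5 (1.11 to 2.38) and 1.27-fold lower on day 10 (1.01 to 1.59). With IL-15 all 3 intervals held 1. In noncycling cells the IL-2v day 5 interval held 1 (1.57-fold lower, 0.94 to 2.73), as did that of IL-2 on day 3 (2.07-fold higher, 0.995 to 4.37). The shares of cells with a UMI, thinned to 2000 UMIs as below, overlapped in 3 of 3 IL-2 and 2 of 3 IL-2v dose pairs.

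Over time, 4 of the 6 cultures had less metallothionein RNA on day 5 than on day 3. Mt1 was 3.71-fold lower on day 5 with 5 IU/mL IL-2, 3.09-fold lower with 5 IU/mL IL-2v, and 3.09-fold and 3.30-fold lower with 5 and 50 IU/mL IL-15. It was 1.07-fold higher with 50 IU/mL IL-2 (1.16-fold lower in noncycling cells) and 1.58-fold higher with 50 IU/mL IL-2v. Mt2 had the same sign as Mt1 in all 6 cultures. From day 5 to day 10 the cultures parted further. Mt1 was 1.65-fold and 1.19-fold higher with 5 and 50 IU/mL IL-2, 17.6-fold and 1.98-fold lower with IL-15, and 2.83-fold lower with 5 IU/mL IL-2v. With 50 IU/mL IL-2v the ratio was 1.02 (0.94 to 1.11), and in noncycling cells Mt1 was 1.45-fold (1.3 to 1.61) and Mt2 2.16-fold lower on day 10. Slc30a1 was higher on day 5 than on day 3 in 4 of 6 cultures, by 1.48-fold to 1.91-fold with intervals above 1, and the 2 exceptions were 50 IU/mL IL-2 and 50 IU/mL IL-2v. In noncycling cells the interval lay above 1 only with 5 IU/mL IL-2 (2.07-fold, 1.19 to 3.86). It held 1 with 5 IU/mL IL-2v (1.44, 0.86 to 2.51) and with 5 and 50 IU/mL IL-15 (1.25, 0.88 to 1.81, and 1.16, 0.80 to 1.71). At 50 IU/mL the ratio moved from 0.79 to 0.48 (0.21 to 1.04) with IL-2. With IL-2v it turned from 0.95 to 1.56 (0.57 to 5.29).

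Each cytokine library of days 3 and 5 was also set against the library without cytokine of that day, which all 6 comparisons of a day share. On day 3, Mt1 was 2.69-fold higher and Mt2 3.67-fold higher with 50 IU/mL IL-2, where 6.45% of genes were at least 2-fold higher. Mt1 was 8.54-fold lower and Mt2 7.02-fold lower with 50 IU/mL IL-2v, where 1.75% of genes were at least 2-fold lower. That Mt2 difference, -2.66 on the log2(CPM + 1) scale, was -3.66 without the top 1% of cells for the gene and -1.85 with a pseudocount of 10 CPM. Here and in the values below, leaving out the top 1% widens a gap by construction where few cells of the lower library hold the gene. Mt2 was also 2-fold or more lower with 5 IU/mL IL-2v, at a log2 difference of -1.17, where 0.0704% of genes were. In the other 4 libraries the Mt1 ratio on day 3 ran from 0.63 with 5 IU/mL IL-2v to 1.45 with 5 IU/mL IL-2. On day 5 every cytokine library was above the library without cytokine. Mt1 was 29.5-fold higher and Mt2 67.2-fold higher with 50 IU/mL IL-2, where 16.5% of genes were at least 2-fold higher. That Mt2 difference, 5.77 on the log2 scale, was 6.93 without the top 1% of cells and 4.38 with the larger pseudocount. For Mt2 with 5 IU/mL IL-2 the log2 difference was 2.56, and those settings gave 3.50 and 1.49. Without the top 1% of cells, Mt2 with 5 and 50 IU/mL IL-15 moved from 1.66 and 1.73 to 2.33 and 2.46, and with the larger pseudocount they fell under 2-fold, at 0.85 and 0.90. In both comparisons Mt2 was under the 20 CPM filter. For Mt2 with 50 IU/mL IL-2v, also under the filter, the difference of 1.14 was 2.58 in cells with neither an Mki67 nor a Top2a UMI, and fell under 2-fold with TMM scaling (0.84) and with the larger pseudocount (0.53). Mt1 was 4.01-fold higher with 5 IU/mL IL-2, where 2.14% of genes passed 2-fold, 2.09-fold higher with 5 IU/mL IL-2v (9.75%), 1.90-fold higher with 50 IU/mL IL-2v, and 2.66-fold and 2.23-fold higher with 5 and 50 IU/mL IL-15 (1.42% and 5.82%). With 50 IU/mL IL-2v the Mt1 difference of 0.90 on the log2 scale passed 2-fold in noncycling cells (1.84), without cells above 2 times the median UMIs (1.22) and by the mean over single cells (1.27). It was 0.57 with TMM scaling. The Mt1 difference with 5 IU/mL IL-2v, 1.04 on the log2 scale, fell under the 2-fold threshold with TMM scaling (0.88), with ribosomal protein and mitochondrial genes left out of the totals (0.99) and with a pseudocount of 10 CPM (0.84). That with 50 IU/mL IL-15 fell under it with the larger pseudocount (0.92), as did the Mt2 difference with 5 IU/mL IL-2v on day 3 (-0.93). TMM scaling moved the higher share of changed genes from 70.2% to 55.9% (50 IU/mL IL-2), from 75% to 53.8% (5 IU/mL IL-2v) and from 81.8% to 59.3% (50 IU/mL IL-2v) on day 3. On day 5 it moved from 68.6% to 55.1%, from 78.8% to 66.8% and from 79.3% to 52.6% in the same order of treatments. Slc30a1 was 2.24-fold lower with 50 IU/mL IL-2v on day 5 and 1.69-fold lower with 50 IU/mL IL-2, the only intervals below 1 among its 12 ratios. That with 50 IU/mL IL-15 on day 3 lay above 1, at 1.36-fold (1.01 to 1.83), and held 1 in noncycling cells (0.79 to 2.09).

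The share of cells with a UMI was compared after each cell was thinned to 2000 UMIs, leaving out 57 to 393 shallower cells per library. Mt1 was found in 51.1%, 53.6% and 68.2% of cells with 50 IU/mL IL-2 on days 3, 5 and 10, and in 4.74%, 7.07% and 7.70% with 50 IU/mL IL-2v. Before thinning these shares were 64.8%, 61.5% and 84.2% with IL-2 and 9.37%, 11.5% and 16.9% with IL-2v. Mt2 was found in 20.8%, 29.1% and 45.6% of thinned cells with 50 IU/mL IL-2 and in 1.01%, 1.69% and 1.66% with 50 IU/mL IL-2v. The thinned shares of both genes were lower with IL-2v than with IL-2 in 6 of 6 pairs, with no overlap of intervals, and the same held for IL-15 against IL-2. In naive cells Mt1 was found in 0.067% (0.014% to 0.196%) of thinned cells. No cell type that should lack these genes was present, so the part of free RNA in these shares was not measured.

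Slc30a1 was found in few cells of any library. The thinned share was highest in naive cells, at 1.79% (1.42% to 2.22%), and lowest with 5 IU/mL IL-2v on day 3, at 0.43% (0.26% to 0.68%). Without thinning the naive share was 3.16%, and that with 5 IU/mL IL-2v on day 10 was higher, at 3.37%. With thinning, the intervals of all 12 pairs of IL-2v or IL-15 against IL-2 overlapped, and without it 1 of 6 IL-2v pairs was lower and 1 of 6 IL-15 pairs higher without overlap.

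**Figure D4:**
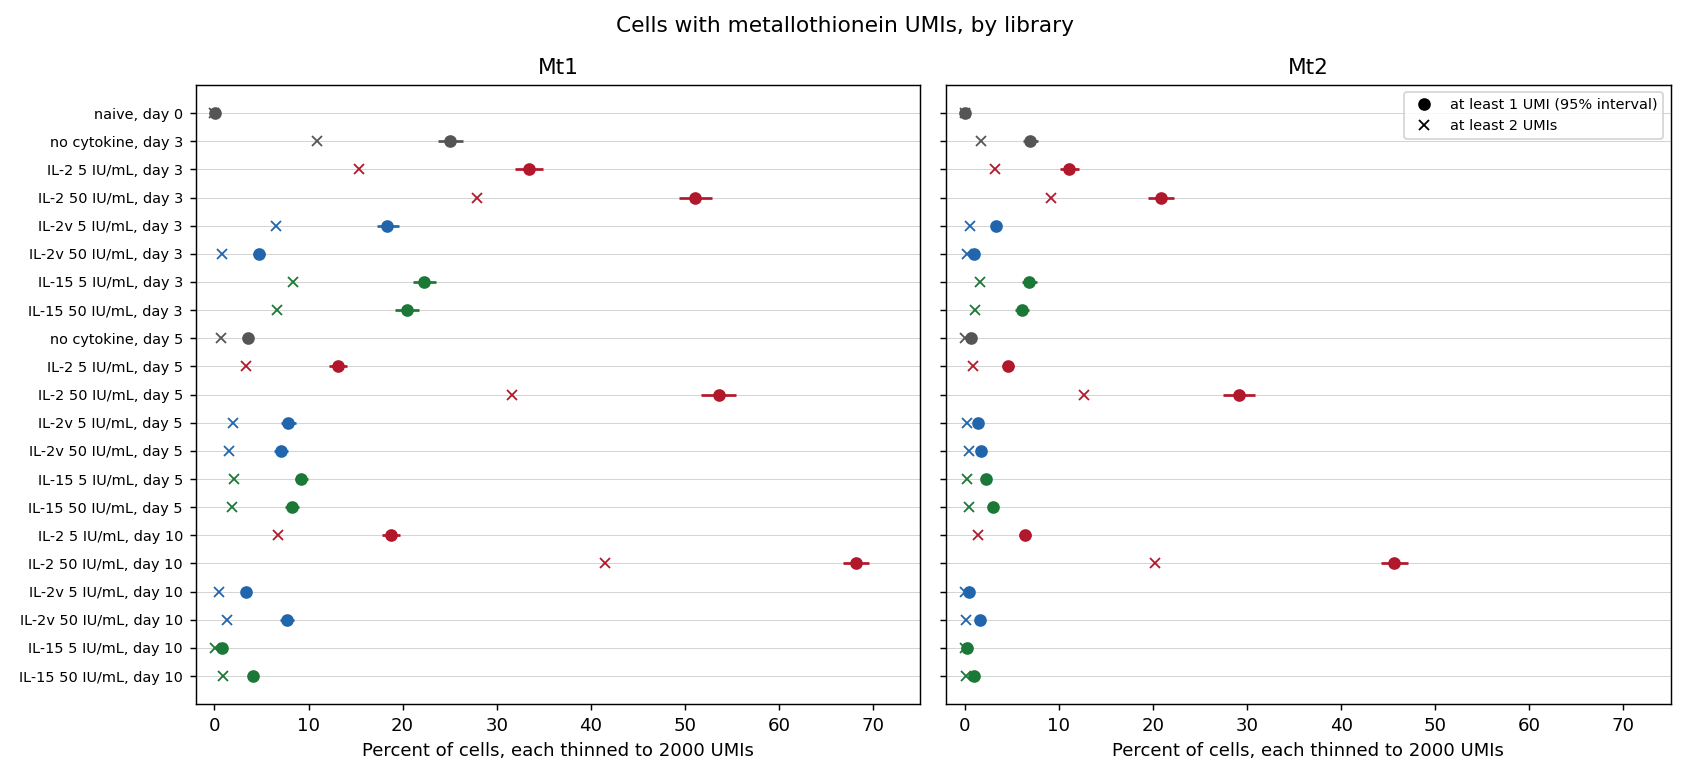
Percent of cells, each thinned to 2000 UMIs, with at least 1 UMI (points, with exact 95% intervals) and at least 2 UMIs (crosses) of Mt1 and Mt2 in the 21 libraries. The 3 libraries with 50 IU/mL IL-2 stand apart, with Mt1 in 51.1% to 68.2% of cells.

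Metallothionein UMIs were unevenly spread over the cells of a culture. On day 3 in 50 IU/mL IL-2, thinned cells had a median of 1 Mt1 UMI, a 99th percentile of 12 and a maximum of 27, and the variance was 4.20 times the mean. On day 10 of that culture the variance was 2.53 times the mean, and the top 10% of cells held 37.3% of the Mt1 UMIs, against 51.1% on day 3. In 50 IU/mL IL-2v on day 5 the maximum was 17 although the 99th percentile was 2. A few cells of that culture thus carried many more Mt1 UMIs than the rest.

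Mt1 and Mt2 were found together in the same cells. On day 10 in 50 IU/mL IL-2, 54.2% of thinned cells with an Mt1 UMI also had an Mt2 UMI, against 27.3% (25% to 29.6%) of cells without one. On day 3 of that culture the shares were 34.8% and 6.23%, and with 50 IU/mL IL-2v on day 3 they were 10.2% and 0.56%. The share was higher in cells with an Mt1 UMI in 20 of 21 libraries without overlap, the exception being naive cells, where Mt2 had no UMI. The share of cells with an Slc30a1 UMI had overlapping intervals in all 21 libraries. Doublets were not called, and whether they were removed before deposit is not given in the sources used here.

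The balance of Mt1 and Mt2 differed between libraries. The ratio of Mt1 to Mt2 UMIs, not corrected for length and used here only to compare libraries, ran from 2.07 (2.02 to 2.11) with 50 IU/mL IL-2 on day 10 to 8.09 (6.38 to 10.4) with 5 IU/mL IL-2v on day 10. It was 2.07 to 4.52 in the 6 IL-2 libraries, 4.08 to 8.09 with IL-2v and 3.48 to 5.69 with IL-15. The ratio was higher with IL-2v than with IL-2 in 5 of 6 pairs without overlap. It was lower at 50 than at 5 IU/mL in 3 of 3 pairs with IL-2, in 3 of 3 with IL-2v and in 1 of 3 with IL-15. The ratio did not follow the Mt1 level throughout: on day 3 with IL-2v it was 7.20 at 5 IU/mL, where Mt1 was at 167 CPM, and 4.08 at 50 IU/mL, where Mt1 was at 31.1 CPM.

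**Figure D5:**
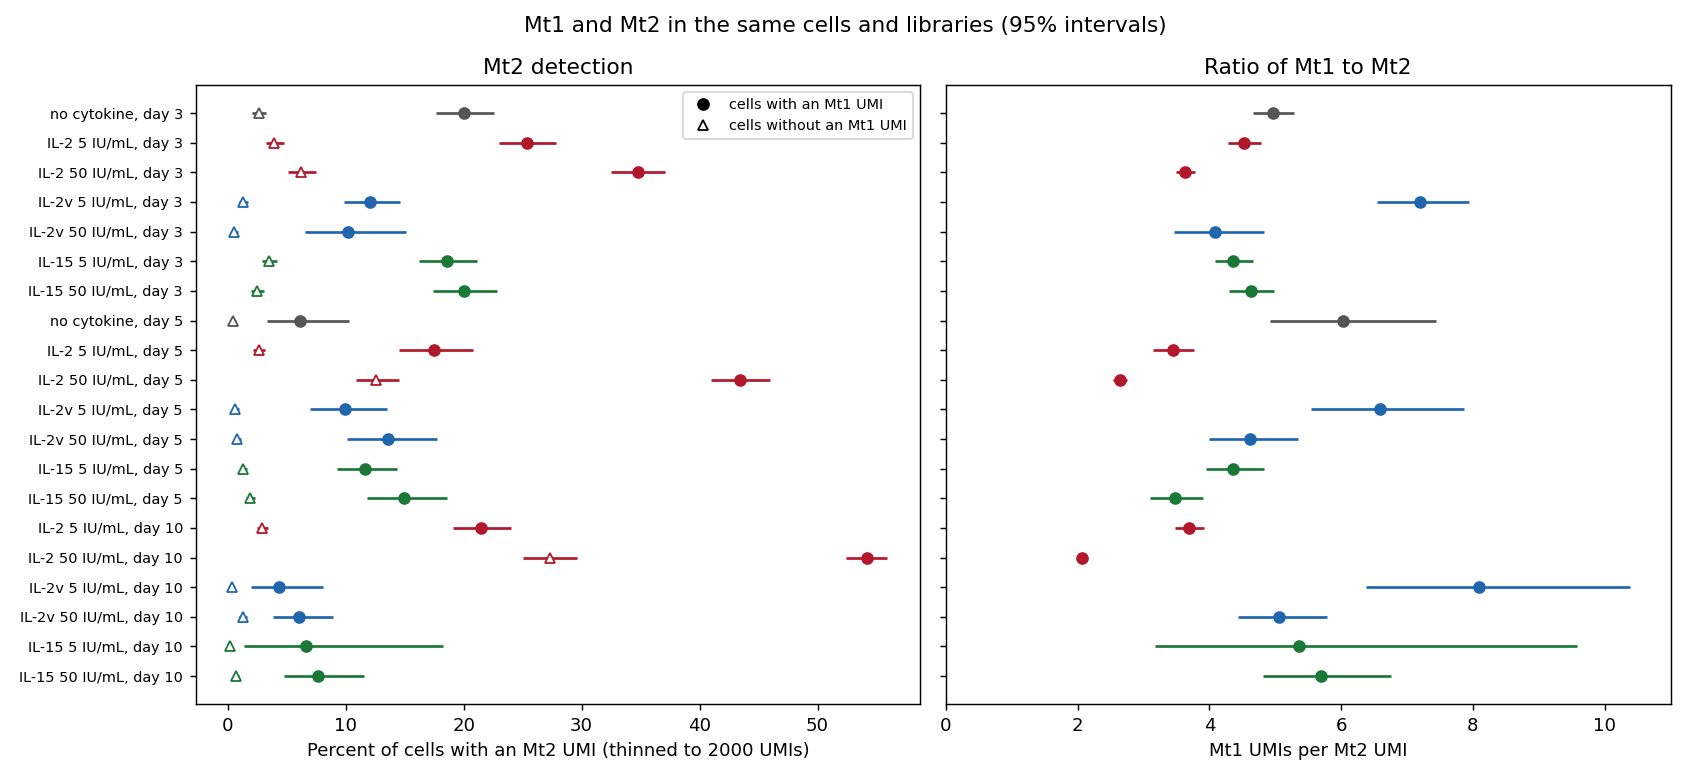
Left, percent of thinned cells with an Mt2 UMI among cells with (circles) and without (triangles) an Mt1 UMI; right, Mt1 UMIs per Mt2 UMI, both with exact 95% intervals, in the 20 activated libraries. The ratio is lowest with 50 IU/mL IL-2 on day 10, at 2.07.

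Mt1 CPM differed between cycling and noncycling cells in 14 of 21 libraries, in either direction. Mt1 was higher in noncycling cells, those with no Mki67 or Top2a UMI, in 6 libraries, lower in 8 and overlapping in 7. The 8 include the naive library, with only 4 Mt1 UMIs in 144 cycling cells and 5 in 4633 noncycling cells. The 6 were all 3 libraries with 50 IU/mL IL-2v, 50 IU/mL IL-2 on days 3 and 10, and 5 IU/mL IL-2 on day 10. With 50 IU/mL IL-2v on day 5, Mt1 was at 84.9 CPM in noncycling and 36.5 CPM in cycling cells. The order was the reverse on day 3 in 5 IU/mL IL-15, at 161 and 239.9 CPM. Mt2 was higher in noncycling cells in 7 libraries and lower in 1, and Slc30a1 intervals overlapped in all 21. Cells with such a UMI were deeper in these libraries (medians of 4468 and 3209 UMIs in the IL-2v library of day 5), and these CPM are from cells not thinned to a common depth. In cells thinned to 2000 UMIs, the share with an Mki67 or Top2a UMI was compared between cells with and without an Mt1 UMI. It was higher in cells with Mt1 in 2 libraries, lower in 4 and overlapping in 15. With 50 IU/mL IL-2v it was 45.6% with and 61.9% without Mt1 on day 5 and 10.2% and 18.2% on day 10, while on day 3 the intervals of 77.2% and 78.8% overlapped. With IL-2 on day 10 it was also lower in cells with Mt1. The shares were 6.75% and 9.92% at 50 IU/mL and 9.38% and 12.3% at 5 IU/mL. In 5 IU/mL IL-15 on day 3 it was 53.6% with and 44.7% without Mt1.

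The other genes of zinc handling were followed from lists. The metal sensor Mtf1 had a mean of 14.7 CPM and ranged from 10.3 CPM without cytokine on day 5 to 21.7 CPM with 50 IU/mL IL-2v on day 5. It reached the filter in 2 of 22 comparisons, those of 50 IU/mL IL-2v with no cytokine on days 3 and 5. The log2 difference was 0.70 on day 3 and 1.01 on day 5, just past 2-fold, where 21.1% of all genes tested were called higher. With TMM scaling the day 5 value was 0.69, under 2-fold, and 52.6% of called genes were higher, against 79.3% by CPM. Its correlation with Mt1 over the 21 libraries was -0.11 (Pearson). Mt3 was at 10.4 CPM with 50 IU/mL IL-2 on day 10 and at 0 to 5.03 CPM elsewhere, with a correlation to Mt1 of 0.73. Mt4 was not among the genes of the tables.

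Of 10 genes of the Slc30 family of exporters, 8 were in the tables and 2 to 4 reached the filter in a comparison. With IL-2v against IL-2, 0 of 3 tested were called, where 1.04% of all genes were called higher and 0.274% lower. With IL-15 against IL-2, 0 of 2 were, where 0.49% of all genes were called higher and 1.7% lower. With so few genes tested, a count of 0 is near the background. Slc30a4, which carries zinc into vesicles, was called higher at 50 IU/mL IL-15, with a median log2 difference of 1.72, where 0.869% of all genes were called higher. The best detected members, Slc30a9 and Slc30a5, had medians of -0.37 and 0.30 for IL-2v against IL-2 and were not called.

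Of 14 genes of the Slc39 family of zinc importers, 13 were in the tables and 2 to 4 reached the filter. Slc39a10, a plasma membrane importer, was called higher with IL-2v than with IL-2 (median 1.24), where 1.04% of genes were called higher, and higher with IL-2v than with IL-15 (1.24), where 2.48% were (62.1% of called genes were higher by TMM, against 80.9% by CPM). It was at 58.3, 51.4 and 20.7 CPM with 50 IU/mL IL-2v on days 3, 5 and 10, against 24.2, 12.3 and 6.6 CPM with 50 IU/mL IL-2. It was also called higher at 50 than at 5 IU/mL IL-2v (1.72), where 2.38% of genes were (63.9% of called genes higher by TMM, against 79.2%). Slc39a14, which imports zinc and iron, was called higher at 50 IU/mL IL-2 (1.28), where 4.29% of all genes were, reaching 35.7 CPM on day 10. In the IL-2v dose step its median was 1.13, but it was under the filter there and was not counted. On days 3, 5 and 10 it was at 13.3, 19.0 and 23.9 CPM with 50 IU/mL IL-2v. With 5 IU/mL IL-2v it was at 7.96, 8.14 and 9.40 CPM. The best detected importers, Slc39a6 and Slc39a7, had medians of 0.16 and 0.06 for IL-2v against IL-2 and were not called.

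Genes of neighbouring metal and stress responses were read from further lists. In the IL-2 dose comparison, where 4.29% of all genes tested were called higher and 2.7% lower and the median of all genes was 0.03, 1 of 6 copper handling genes was called higher (Sod1, 1.46) and 1 lower (Ccs, the copper chaperone for Sod1, -1.46), while Cox17, the best detected of that list, was at 0.46. Of 5 iron handling genes 1 was called higher, the transferrin receptor Tfrc (1.03), and the ferritin genes Fth1 and Ftl1 had medians of 0.41 and 0.31. Hmox1, on the iron list but under the filter, had a median of 2.05. On days 3, 5 and 10 it was at 10.7, 9.73 and 12.6 CPM with 50 IU/mL IL-2. With 5 IU/mL IL-2 it was at 4.47, 1.60 and 1.85 CPM. Of 10 targets of the oxidative stress factor NRF2, 4 reached the filter and none was called. These had -0.45 for Prdx1, 0.00 for Txnrd1, -0.20 for Gclm and 0.78 for Gsr. Of the list genes under the filter, Osgin1, Srxn1 and Slc7a11 were highest of the 21 libraries with 50 IU/mL IL-2 on day 10. They stood there at 25.9, 8.21 and 5.65 CPM. Gclc, also under it, was lowest in that library, at 10.2 CPM. The part of this response in the metallothionein levels was not tested. Of 5 glucocorticoid response genes 1 was called higher (Per1, 1.0), and Tsc22d3 and Fkbp5 had -0.01 and 0.90. The hypoxia response list had 6 of 10 called higher: Vegfa (2.21), Ankrd37 (1.74), Egln3 (1.56), Ndrg1 (1.48), Slc2a1 (1.34) and Bnip3 (1.27). Its median was 1.31. Of its 2 best detected members, Bnip3 was called and Hif1a, at 0.53, was not.

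The same lists were read in the other comparisons. With IL-2v against IL-2, where 1.04% of all genes were called higher and 0.274% lower, no gene of the copper, iron, NRF2, glucocorticoid or hypoxia lists was called, and the hypoxia list had a median of -0.39 over 9 genes, against 0.06 for all genes tested. With IL-15 against IL-2, where 1.7% of all genes were called lower, 4 of 9 hypoxia genes were (Bnip3, -2.47, Ndrg1, -1.98, Egln3, -1.43 and Slc2a1, -1.39), and the list median was -1.39 against -0.01 for all genes tested. After activation, where 11.1% of all genes tested passed 2-fold upward and 8.31% downward, 6 of 9 hypoxia genes were higher, with 5.75 for Aldoc, 4.56 for Bnip3, 3.27 for Egln3, 2.30 for Ndrg1, 2.23 for Ankrd37 and 2.16 for Hif1a, beside 2 of 5 copper genes (Sod1, 1.53, and Commd1, 1.08), 1 of 5 iron genes (Tfrc, 2.05) and 1 of 4 glucocorticoid genes (Fkbp5, 1.14), and the glucocorticoid gene Sgk1 was lower (-2.64). At 50 against 5 IU/mL IL-2v, where 2.38% of all genes tested were called higher, 1 of 5 glucocorticoid genes (Klf9, 1.14) and 1 of 10 hypoxia genes (Vegfa, 1.26) were. In the IL-15 dose comparison, with 0.869% of all genes called higher, 3 of 8 hypoxia genes were (Aldoc, 3.17, Bnip3, 1.20 and Ndrg1, 1.12). With IL-2v against IL-15, where the share of all genes was 2.48%, 1 of 5 iron genes (Tfrc, 1.16) and 1 of 9 hypoxia genes (Slc2a1, 1.24) were called higher. The hypoxia list median was 0.99, against 0.10 for all genes tested. Bnip3 (1.80), Ankrd37 (1.75) and Ndrg1 (1.70) had larger medians than Slc2a1 but not the same sign in all pairs. On day 10 against day 5, where 1.62% of genes were called lower, 1 of 9 hypoxia genes was (Hif1a, -1.13). Without cytokine, 3.61% of all genes passed 2-fold upward from day 3 to day 5 and 9.47% downward. Of 5 copper genes 1 was higher (Ccs, 1.51) and 1 lower (Sod1, -1.12), 1 of 5 iron genes (Tfrc, -2.28) and 1 of 3 glucocorticoid genes (Fkbp5, -1.61) were lower, and so were 4 of 9 hypoxia genes (Aldoc, -3.79, Bnip3, -2.34, Ndrg1, -2.05 and Egln3, -1.53).

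The genes whose log2(CPM + 1) pattern over the 21 libraries was most like each member were named by Pearson correlation, among the 5494 other genes (5495 for Slc30a1) that reached a 20 CPM mean over the libraries. After Mt2 (0.97), those most like Mt1 were Impa2 (0.90), an inositol monophosphatase, Acadl (0.88), a fatty acid oxidation enzyme, Chmp2a (0.88), a membrane remodelling subunit, and the glycolytic enzyme Gapdh (0.87). Those most like Mt2 after Mt1 were Acadl (0.88), Dgat1 (0.88), which makes triglycerides, Chmp2a (0.84) and Impa2 (0.84). Those most like Slc30a1 were Smim10l1 (0.80), Pnpla7 (0.80), Susd6 (0.79), the glutathione peroxidase Gpx1 (0.78) and Cdipt (0.78). With rank correlation 3, 3 and 1 of the 5 genes were kept for Mt1, Mt2 and Slc30a1. The lists were also rebuilt over the 18 libraries with a cytokine and with TMM scaling. In each of the 9 rebuilt lists at most 3 of the 5 genes were kept. All these genes share libraries and depth with the members, so the correlations are descriptions.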

How the data were processed

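Each library was deposited by the authors as a table of counts, whole-number UMI counts per gene and cell. Per the submitters' processing notes, Cell Ranger, Seurat 3.0.2, Seurat 4.0.1 and the mm10 build were used; which step used which is not given in the sources used here. Barcodes below 1000 UMIs or 500 genes, or above 10% mitochondrial UMIs, were dropped, leaving 106456 of 106458. Doublets were not called. Counts were summed per library and given as CPM, and differences as log2(CPM + 1). Genes reaching a 20 CPM mean on either side were compared. A gene was called where all pairs had 1 sign and the median was at least 1 in size; pairs of other days or doses are not replicates, so no test was made and no p-value is given. Cells were thinned to 2000 UMIs with a fixed seed for shares. The calling step was tested on simulated counts that held counting error only. They had no spread between libraries, so that test cannot show how often the rule errs in unreplicated libraries. The 3 genes, the lists and the rules were chosen with earlier results of these data known. Genes were named by rule: the members, the list genes called in a comparison of cytokines, doses, days or activation, the 2 best detected genes of each list, and the 5 genes most like each member. Outside this rule, some further genes of the NRF2 and iron lists were named to show the spread within a list. Alternatives were TMM scaling (edgeR 4.0.16), other totals, other cell filters, a pseudocount of 10 CPM, noncycling cells, cell means and leaving out a day. The growth protocol also names day 7, which was not analysed here. The extract protocol describes a sort of tumour T cells; the growth protocol's culture was followed. No protein sequences were used here.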

Additional observations from a re-analysis of the deposited data

Results flagged for a closer look

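The change from day 5 to day 10 went opposite ways with IL-2 and with IL-15 for both metallothioneins, at both doses of each cytokine, and the difference was not tested. For Mt1 the mean log2 difference (day 10 minus day 5) was 0.48 with IL-2, where the smaller of the 2 values was 0.25, and -2.40 with IL-15, where the smaller in size was -0.96. For Mt2 it was 0.60 with IL-2 and -2.40 with IL-15, where the smaller in size was -1.52. The 5 IU/mL IL-15 library of day 10 held 91 Mt1 and 17 Mt2 UMIs.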

How the results depend on the processing

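Of 26 differences past the size rule, 22 were in genes that reached the 20 CPM filter in that comparison and 4 were under it. For the 22, 211 of 216 values under the alternatives kept their side of the threshold and 5 did not. For the 4, 30 of 36 did and 6 did not, and 0 changed sign in either set. The 6 calls of Mt1 and Mt2 in the comparisons of IL-2v or IL-15 with IL-2 and of the IL-2 doses were kept under every alternative run. TMM scaling shifted the median of all genes by -0.06 for IL-2v against IL-2 and by -0.33 for 50 IU/mL IL-2v against no cytokine on day 5.

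A pseudocount of 10 CPM moved Mt2 for IL-2v and IL-15 against IL-2 to -2.87 and -2.20, moved Mt1 and Mt2 on activation to 4.71 and 2.67, and gave values under the threshold for activation of Slc30a1 (-0.48), for Mt2 with 5 IU/mL IL-2v against no cytokine on day 3 (-0.93), and against no cytokine on day 5 for Mt1 with 5 IU/mL IL-2v (0.84) and 50 IU/mL IL-15 (0.92) and for Mt2 with 50 IU/mL IL-2v (0.53) and 5 and 50 IU/mL IL-15 (0.85 and 0.90), with Slc30a1 at -0.34 for 50 IU/mL IL-2v. TMM scaling gave 0.88 for Mt1 with 5 IU/mL IL-2v, 0.84 for Mt2 and -1.19 for Slc30a1 with 50 IU/mL IL-2v, all against no cytokine on day 5, and -0.067 for Mt2 in the IL-15 dose step. With ribosomal protein and mitochondrial genes left out of the totals, that Mt1 value was 0.99 and that Slc30a1 value -1.15.

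In noncycling cells (no Mki67 or Top2a UMI) the values were 0.018 for Slc30a1 (IL-2v against IL-2), 0.23 for Mt1 and -0.087 for Mt2 (IL-2v against IL-15), 0.68 and 1.27 (IL-2v dose), and -0.84 for Slc30a1 on activation. Against no cytokine on day 5 they were -1.01 for Slc30a1 with 50 IU/mL IL-2, 1.3 for Mt2 with 5 IU/mL IL-2v and 1.84 for Mt1 and 2.58 for Mt2 with 50 IU/mL IL-2v. Without cells above 2 times the median UMIs those 2 IL-2v values of 1.3 and 1.84 were 1.03 and 1.22. The mean over single cells gave 1.27 for Mt1 with 50 IU/mL IL-2v, and -0.011 (IL-15 dose) and 0.029 (day 10 against day 5) for Slc30a1. At most 5% mitochondrial UMIs gave -1.06 for Slc30a1 with 50 IU/mL IL-2v. Without the top 1% of cells, Mt2 for IL-2v against IL-2 was -5.41, and Slc30a1 was at -1.63 (IL-2v dose), 0.13 (day 10 against day 5), and -1.79 and -2.01 (50 IU/mL IL-2 and IL-2v against no cytokine, day 5). Slc30a1 had a UMI in 1.14% and 1.08% of unthinned cells of those IL-2 and IL-2v libraries, so few of its positive cells were left there.

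Leaving out a day changed the uncalled medians. For IL-2v against IL-15, Mt1 was 0.27 without day 3 and 0.21 without day 5, and Mt2 0.12 and -0.10. In the IL-2v dose step Mt1 was 0.61 without day 3 and -1.26 without day 10, Mt2 1.02 and -0.57, and Slc30a1 -1.04 without day 3. In the IL-15 dose step Mt1 was 1.18 without day 3 and 1.23 without day 5, and Mt2 0.95, 0.79 and, without day 10, -0.087. Slc30a1 was 0.087 in the IL-2 dose step without day 5.

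For shares, counted as pairs higher minus pairs lower, no thinning gave -1, 1 and -2 for Slc30a1 (IL-2v and IL-15 against IL-2, IL-2v against IL-15), -1 and -2 for its IL-2 and IL-2v dose steps, -2 for Mt1 (IL-2v against IL-15) and 0 for Mt2 (IL-15 dose). Thinning to 1000 UMIs gave -1 for Mt1 and Mt2 and 0 for Slc30a1 (IL-2v against IL-15) and -2 for Slc30a1 (IL-2v dose). At least 2 UMIs gave -1 and 0 for Mt1 and Slc30a1 (IL-2v against IL-15) and 0 for Slc30a1 (IL-2v dose) and Mt1 (IL-15 dose).

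Without the expression filter, genes called lower were 26 against 16 (IL-2v against IL-2), 182 against 97 (IL-15 against IL-2), 370 against 159 (IL-2 dose), 250 against 92 (day 10 against day 5), 1042 against 513 (activation) and 1305 against 548 (no cytokine). Genes called higher were 481 against 252 (IL-2 dose), 259 against 144 (IL-2v against IL-15), 58 against 28 (IL-15 against IL-2), 345 against 141 (IL-2v dose), 122 against 48 (IL-15 dose), 1579 against 684 (activation) and 358 against 209 (no cytokine). Against no cytokine the count in the direction of the metallothioneins was 1.5 or more times larger in each comparison, as on day 5 with 50 IU/mL IL-2 (2022 against 992). TMM gave 36 against 61 higher and 25 against 16 lower for IL-2v against IL-2, 87 against 144 higher for IL-2v against IL-15, and 194 against 106 lower for 50 IU/mL IL-2v on day 3. No replicate block could be fitted, since each condition had 1 library. Pairs of equal day and dose were compared as matched differences, and a test over those pairs was left out by choice, since the genes were chosen from these levels. Depth limits Slc30a1, with 39 to 215 UMIs per library, so differences inside the intervals given were not detectable.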
